A study of Danio rerio with 8 samples.

Results

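The genes described here encode the proteins that modify, fold, trim and cross-link collagen. They were chosen by name, 39 zebrafish genes in 8 groups by enzyme step, and their reads were looked up in a count table of 31901 genes. Symbols could be tied to 37 of the 39. The other two, loxb and plod1b, matched no entry in the tables used here and are not analysed here. After a filter on low counts 35 remained for testing. Those below the filter were bmp1b and tgm2a.

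RNA was sequenced from GFP-positive cells sorted out of zebrafish larvae of the line BAC(pdgfrb:Gal4ff)ncv24;UAS:GFP, in which the pdgfrb promoter drives Gal4ff and Gal4ff in turn drives GFP. The labels describe the sorted cells as myoseptal and perivascular, that is, from the connective tissue sheets between muscle blocks and from around blood vessels. The 4 lesioned libraries come from larvae whose spinal cord was mechanically lesioned 1 day earlier, and the 4 unlesioned libraries from larvae without a lesion, all of the same transgenic line, at 4 days after fertilization and dissociated with trypsin. How many larvae were pooled, and whether libraries of a group come from separate clutches, is not given in the labels. A p-value here thus sets the difference between the groups against the spread of these libraries only, and that spread may be technical.

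Collagen chains are altered while they enter the endoplasmic reticulum. Prolyl hydroxylases stabilise the triple helix, lysyl hydroxylases prepare cross-link sites, and peptidyl-prolyl isomerases and the chaperone Hsp47 assist folding. Outside the cell, proteases trim the propeptides and lysyl oxidases and transglutaminases join the molecules into a stable matrix. Fibroblasts and tendon cells are known for high levels of this machinery.

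Total counts were 19552807 to 25358885 per library, and the 37 genes took 0.414% to 0.947% of them. Libraries 1 and 2 of both groups stood apart from libraries 3 and 4. The mitochondrial share was 8.91% to 10.2% in the former and 13.8% to 16.8% in the latter, and reads on synthetic spike-in RNAs numbered 0 to 3 and 64 to 158. The labels give no batch, so values are also given for libraries 1 and 2 and for libraries 3 and 4 where they bear on a result. The 8 reporter and fibroblast markers summed to 10298 to 24377 CPM without and 15474 to 22881 CPM with a lesion, with 3 of 8 positive log2 fold changes (median -0.16) and 0 called in edgeR. Among them col1a1a had 5401 ± 2123 and 6568 ± 2321 CPM (SD, n = 4 each), while tgfbi had means of 5371 and 2468 CPM and lum 984 and 409.9 CPM. CPM is the count of a gene relative to the library's total, scaled to a fixed number of reads after TMM, a correction for composition. The gene pdgfrb, whose promoter drives the reporter, had 207, 241, 226 and 177 CPM in unlesioned 1 to 4 and 185, 199, 281 and 114 CPM in lesioned 1 to 4. The groups overlapped, with a log2 fold change, lesioned over unlesioned, of -0.13 ± 0.27 (SE, adjusted p = 0.924 in edgeR).

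Of 35 genes tested, 0 rose and 0 fell at an adjusted p under 0.05 in edgeR's quasi-likelihood test, against 0.019% of all genes called higher and 0% called lower. In simulated data the same test called 0 of 50 genes changed 2-fold and 24 of 50 changed 4-fold. The lack of calls therefore does not show a lack of change. At an unadjusted p under 0.05 the count was 6 higher and 1 lower. These are 17.1% and 2.86% of the genes tested, where 6.07% and 5.48% of all genes were higher and lower, 11.6% in either direction. These counts moved with single libraries: 3 higher and 2 lower without unlesioned 3 (7.14% and 5.62% of all genes) and likewise without lesioned 1 (4.57% and 4.22%). In libraries 3 and 4 alone they were 2 and 0 (3.33% and 2.04%), with library size only 10 and 1 (8.35% and 3.33%), and with the replicate block 9 and 2 (7.32% and 7.12%). DESeq2 called 2 of them higher, p4hb and fkbp7, and 0 lower, against 3.4% and 3% of all genes with an adjusted p there, 6.4% in either direction. limma voom and edgeR with the replicate number as a block called 0. Lesioned and unlesioned values were fully apart for 2 of the 35, both higher (5.71%), and for 0 that were lower. Over all genes 5.32% were apart and higher and 3.91% apart and lower, 9.23% in either direction. The median log2 fold change was -0.09, against -0.04 over all genes, with 16 positive and 19 negative values. With library size as the only scaling these medians were 0.10 and 0.12, and 20 of the 35 values were positive, so all changes here are relative to TMM scaling. The unadjusted calls over all genes were then 1316 higher and 524 lower, against 957 and 864 with TMM.

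**Figure D1:**
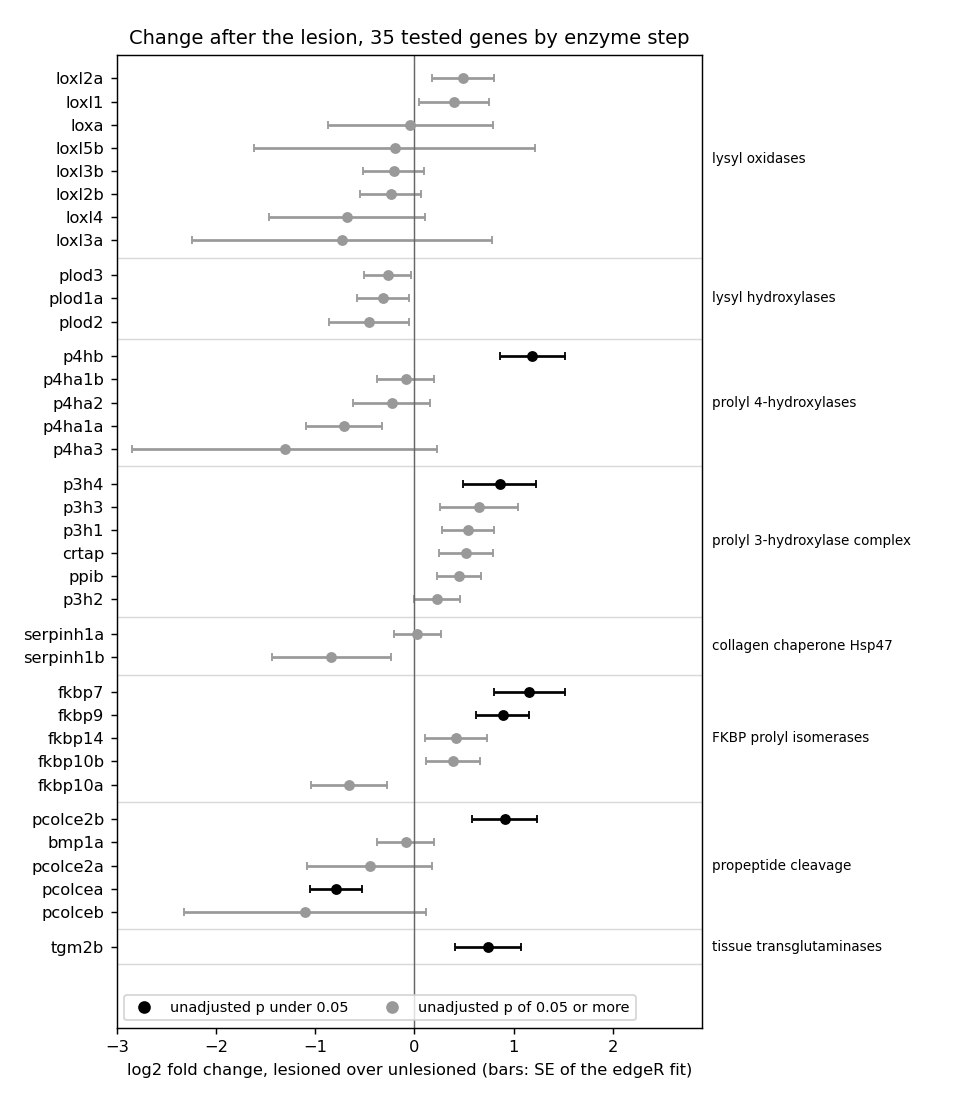
Log2 fold change of lesioned over unlesioned for the 35 tested genes, sorted within each enzyme step; points are edgeR estimates and bars 1 SE, black where the unadjusted p was under 0.05. All 6 genes of the step named after the prolyl 3-hydroxylase complex lie right of 0 and all 3 lysyl hydroxylases left of it. No gene passed the adjusted threshold.

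Levels per exon length spanned a wide range, and in the prolyl hydroxylase, Hsp47, propeptide and transglutaminase steps 1 gene held most of the signal. The Hsp47 gene serpinh1b was the most abundant, with 1017 CPM per kilobase of exon in the unlesioned group, above 99.5% of the genes tested when all libraries were averaged. Next came ppib at 396, pcolcea at 181, crtap at 118 and fkbp9 at 109.9 CPM per kilobase. At the other end loxl3a, loxl5b, loxl4 and p4ha3 were each under 1 CPM per kilobase in both groups.

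Related genes of a step were used unequally. As a share of the level per kilobase, serpinh1b made up 96.7 ± 1.14% of the Hsp47 pair in the unlesioned group (SD, n = 4), leaving 3.32% to serpinh1a. Among prolyl 4-hydroxylase genes p4ha2 made up 74.8 ± 10.1%. In the propeptide step pcolcea made up 84.7 ± 1.26%. The tissue transglutaminase signal came from tgm2b in every unlesioned library, where tgm2a had 0 counts, and 3 counts would correspond to at most 0.157 CPM. The protease gene bmp1a had 15.2 ± 0.269 CPM in the unlesioned group, while bmp1b had 0.736 ± 0.665 CPM.

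**Figure D2:**
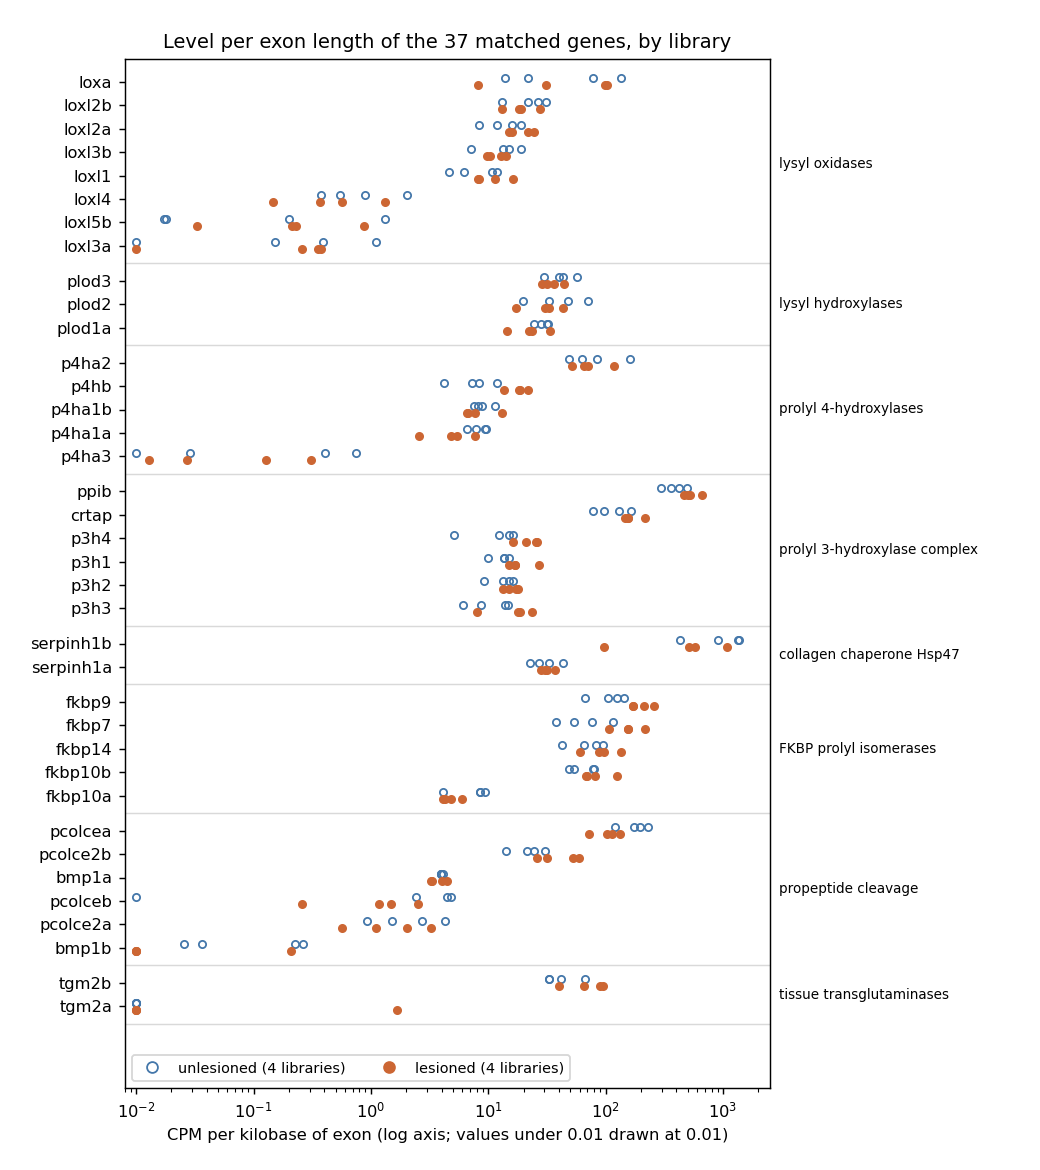
CPM per kilobase of exon for the 37 matched genes in each library, on a log axis, grouped by enzyme step; open circles are the 4 unlesioned and filled circles the 4 lesioned libraries, and values under 0.01 are drawn at 0.01. The highest gene is serpinh1b, and the groups overlap for all genes except p4hb and fkbp9.

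Prolyl 4-hydroxylase is built from catalytic alpha subunits, encoded by the p4ha genes, and from protein disulfide isomerase, encoded by p4hb. The beta subunit gene p4hb (ENSDARG00000105116, chromosome 6 from 18203464 to 18228358, minus strand, GRCz11) had 20.7, 23.8, 12 and 33.9 CPM in unlesioned 1 to 4. In lesioned 1 to 4 it had 52.7, 52.0, 39.1 and 62.5 CPM. Every lesioned library lay above every unlesioned one. The log2 fold change was 1.19 ± 0.33 (SE), with an unadjusted p of 0.00462 and an adjusted p of 0.214 in edgeR, and 0.0296 in DESeq2. Over all settings tried the edgeR, DESeq2 and limma adjusted p lay between 0.0296 and 0.925, the latter with libraries 3 and 4 alone, and the log2 fold change between 0.98 and 1.45.

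The groups overlapped for each alpha subunit gene. The most abundant one, p4ha2, had 132, 177, 334 and 101 CPM in unlesioned 1 to 4 and 136, 147, 245 and 107 CPM in lesioned 1 to 4. Library 3 was the highest of each group and the groups overlapped fully (log2 fold change -0.23 ± 0.39, adjusted p = 0.901 in edgeR). Without unlesioned 3 its log2 fold change was 0.21. The paralog p4ha1a had 18.3, 15.2, 22.2 and 21.7 CPM in unlesioned 1 to 4 and 17.7, 12.6, 11.1 and 5.97 CPM in lesioned 1 to 4. It was lower at each library number, and the groups overlapped (-0.71 ± 0.38, adjusted p = 0.535 in edgeR). The labels do not state that libraries pair by number. How many of all genes keep the same direction at every number was not computed. Statements by number, here and below, are therefore descriptions of some genes only. The other two alpha genes, p4ha1b and p4ha3, had log2 fold changes of -0.09 and -1.31 with SEs of 0.29 and 1.54.

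The prolyl 3-hydroxylase complex joins the enzyme P3H1 to its partner CRTAP and to cyclophilin B, the prolyl isomerase encoded by ppib. The step named after it here also lists p3h2, p3h3 and p3h4, which are not these parts of the complex. The log2 fold change was positive for all 6 tested genes of this step (median 0.53), where 47.7% of all genes were positive. The 6 were also positive with DESeq2 size factors, with library size only, in libraries 1 and 2 alone (median 0.48), in libraries 3 and 4 alone (0.75) and with any 1 library left out. None passed the adjusted threshold. At an unadjusted p under 0.05 only p3h4 counted, and with the replicate block p3h4, ppib, crtap and p3h3 did, with edgeR adjusted p of 0.2 to 0.313. Over all genes 6.07% were higher at that p in the main fit and 7.32% with the replicate block. The count was 0 without unlesioned 3, unlesioned 4, lesioned 1 or lesioned 2, and in libraries 3 and 4 alone. Over all genes the shares were then 7.14%, 5.97%, 4.57%, 5.03% and 3.33%, in that order. The count was 3 without unlesioned 2, 2 without lesioned 3 and 4 with library size only (5.83%, 5.91% and 8.35% of all genes). The gene closest to the threshold was p3h4, which encodes a member of the family that in mice works with lysyl hydroxylase 1. It had 27.9, 29.9, 22.8 and 9.45 CPM in unlesioned 1 to 4 and 46.7, 47.6, 39.0 and 29.7 CPM in lesioned 1 to 4. The lowest lesioned value lay just under the highest unlesioned one (log2 fold change 0.86 ± 0.37, adjusted p = 0.402 in edgeR).

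Cyclophilin B, the most abundant product of this step, had the same direction. Its gene ppib had 454, 532, 388 and 316 CPM in unlesioned 1 to 4 and 712, 542, 556 and 493 CPM in lesioned 1 to 4. It was higher in the lesioned library at each number, by little at number 2 (log2 fold change 0.45 ± 0.22, adjusted p = 0.498 in edgeR). The enzyme gene p3h1 had 41.6, 37.8, 37.5 and 27.7 CPM in unlesioned 1 to 4 and 74.6, 46.9, 41.4 and 47.2 CPM in lesioned 1 to 4, with overlap by 1 lesioned library (0.54 ± 0.26, adjusted p = 0.481 in edgeR). Of its exon bases 19.1% are also covered by antisense genes. The counting does not separate strands, so reads on these shared bases went to neither gene. Among these antisense genes C11H1orf50 had means of 14.8 CPM without and 14.4 CPM with a lesion. The remaining members crtap, p3h2 and p3h3 had log2 fold changes of 0.52, 0.23 and 0.65. Within the step ppib made up 70.5 ± 1.43% of the level per kilobase without and 68.9 ± 1.99% with a lesion (SD, n = 4 each).

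FKBP proteins of the endoplasmic reticulum are a separate family of prolyl isomerases, and FKBP10 and FKBP14 are known collagen folding factors. Of the 5 genes 4 had a positive log2 fold change, also within libraries 1 and 2 and within libraries 3 and 4, and the exception was fkbp10a. The gene fkbp9 had 280.4, 321, 233 and 148 CPM in unlesioned 1 to 4 and 575, 477, 386 and 384 CPM in lesioned 1 to 4. The groups did not overlap (log2 fold change 0.89 ± 0.27, unadjusted p = 0.00773, adjusted p = 0.23 in edgeR). Over all settings tried the adjusted p ran from 0.05 in DESeq2, which did not pass, to 0.892 in libraries 3 and 4 alone. An antisense gene with at most 0.0757 CPM on average in either group covers 21.3% of the exon bases of fkbp9.

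The gene fkbp7 encodes another member of the family. It had 90.4, 138, 64.2 and 45.0 CPM in unlesioned 1 to 4 and 257, 186, 126 and 184 CPM in lesioned 1 to 4. Lesioned 3 lay under unlesioned 2, so the groups overlapped (1.16 ± 0.36, adjusted p = 0.234 in edgeR and 0.0487 in DESeq2). The paralogs of FKBP10 went different ways, fkbp10b with means of 149.7 CPM without and 196 CPM with a lesion and fkbp10a with 15.1 and 9.52 CPM, and with log2 fold changes of 0.39 ± 0.27 and -0.66 ± 0.38 (SE). Neither passed. The gene fkbp14 had 134 ± 42.5 and 179.7 ± 58.1 CPM.

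**Figure D3:**
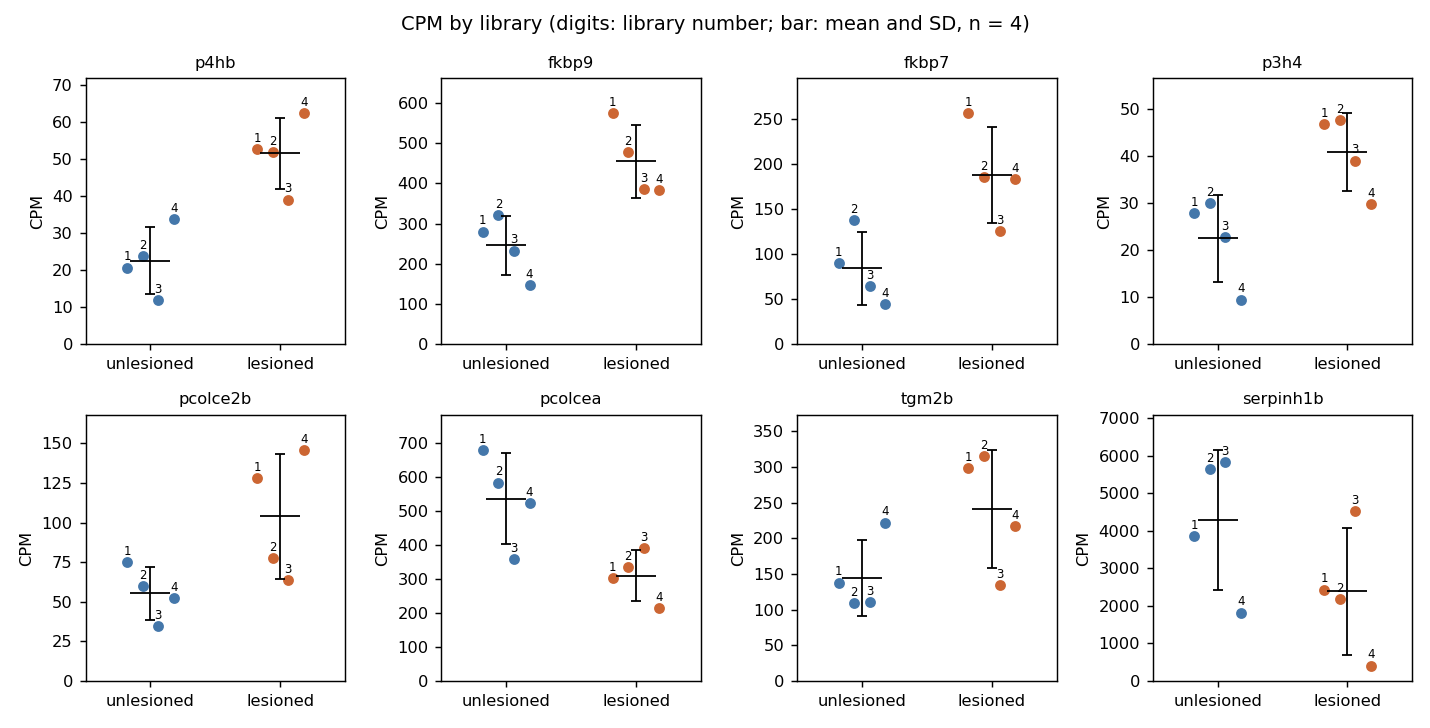
CPM of 8 genes in each library, with the unlesioned libraries on the left of each panel and the lesioned ones on the right; digits give the library number and bars the mean and SD of 4 libraries. The groups do not overlap for p4hb and fkbp9, while single libraries overlap for fkbp7, p3h4 and pcolcea, and serpinh1b is lowest in library 4 of each group.

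Some of these genes are neighbours in the genome. On GRCz11, fkbp9 (ENSDARG00000005023, chromosome 19 from 42591150 to 42607451, minus strand) and crtap (ENSDARG00000018010, chromosome 19 from 42609132 to 42617723, plus strand) lie head to head with 1680 bases between them. The genes p3h4 (ENSDARG00000104089, chromosome 19 from 18423378 to 18492557, minus strand) and fkbp10a (ENSDARG00000099183, chromosome 19 from 18493782 to 18597568, plus strand) are likewise head to head, 1224 bases apart. No other annotated gene lies in either gap. In the former pair both genes had positive log2 fold changes, 0.89 and 0.52. The latter pair had opposite signs, 0.86 for p3h4 and -0.66 for fkbp10a.

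Hsp47 binds the folded triple helix of collagen. Its main gene serpinh1b (ENSDARG00000019949, chromosome 15 from 29382454 to 29388012, minus strand) had 3854, 5634, 5831 and 1818 CPM in unlesioned 1 to 4 and 2433, 2177, 4524 and 409 CPM in lesioned 1 to 4. It was lower in the lesioned library at each number, but library 4 was the lowest and library 3 the highest of each group, so the groups overlapped. The log2 fold change was -0.84 ± 0.60 (adjusted p = 0.67 in edgeR), and between -1.36 and -0.49 with 1 library left out. With the replicate block it was -1.13, the unadjusted p went from 0.186 to 0.00584, and the adjusted p was 0.174 in edgeR. The paralog serpinh1a, which shares 33.1% of its exon bases with an antisense gene of under 1 CPM, had 103, 165, 127 and 86.2 CPM in unlesioned 1 to 4 and 142, 117, 122 and 108 CPM in lesioned 1 to 4 (0.03 ± 0.24, adjusted p = 0.988 in edgeR), so its groups overlapped fully.

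Lysyl hydroxylases were the step in which all tested genes had a negative log2 fold change, under each scaling and with any 1 library left out, although none passed. The gene plod2, whose product in mammals modifies the telopeptides, had 129.6, 189, 78.9 and 279.6 CPM in unlesioned 1 to 4 and 173, 119.8, 68.3 and 129.6 CPM in lesioned 1 to 4 (-0.46 ± 0.40, adjusted p = 0.737 in edgeR). For plod3, a lysyl hydroxylase that also transfers sugars to collagen, the values were 129.5, 170.3, 121 and 90.8 CPM and 134, 109, 86.3 and 95.6 CPM (-0.27 ± 0.24, adjusted p = 0.759 in edgeR). For plod1a they were 98.6, 97.2, 74.8 and 85.9 CPM and 102, 72, 44.1 and 67.9 CPM (-0.32 ± 0.26, adjusted p = 0.728 in edgeR). In all 3 genes the groups overlapped, and at number 1 the lesioned library was the higher one.

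Trimming of the propeptides uses the protease BMP1 and enhancer proteins, encoded by the pcolce genes, that speed it up. The main enhancer gene pcolcea (ENSDARG00000056913, chromosome 10 from 22789319 to 22803854, minus strand) had 679.7, 583, 359 and 522 CPM in unlesioned 1 to 4 and 302, 334, 389.8 and 213 CPM in lesioned 1 to 4. Lesioned 3 was the only lesioned library above an unlesioned one (log2 fold change -0.79 ± 0.26, unadjusted p = 0.0126, adjusted p = 0.267 in edgeR). The gene pcolce2b (ENSDARG00000055575, chromosome 24 from 5871589 to 5910811, minus strand) had 74.9, 59.9, 34.7 and 52.1 CPM in unlesioned 1 to 4 and 128, 77.8, 63.7 and 146 CPM in lesioned 1 to 4. It was higher in the lesioned library at each number, again with overlap by 1 library (0.91 ± 0.33, unadjusted p = 0.0204, adjusted p = 0.314 in edgeR). A neighbour on the same strand with at most 0.012 CPM on average shares 29.1% of its exon bases.

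Set against each other, the 2 enhancer genes separated the groups. For every 100 pcolcea reads there were 11, 10.3, 9.67 and 9.98 pcolce2b reads in unlesioned 1 to 4, a mean of 10.2 with an SD of 0.578. In lesioned 1 to 4 there were 42.4, 23.3, 16.3 and 68.5, a mean of 37.6 with an SD of 23.3. All lesioned values lay above all unlesioned ones, and the lesioned values were spread more widely. This ratio does not depend on the scaling between libraries. It was singled out after its values were seen and has no test. Of 56 pairs of genes within a step that had at least 10 counts in every library, 9 had ratios without overlap between the groups. Within these 9 pairs, 6 belonged to the FKBP genes, 2 to the prolyl 4-hydroxylases and 1 to the enhancers. The 6 FKBP pairs each held fkbp7, fkbp9 or fkbp10a, and both prolyl 4-hydroxylase pairs held p4ha1a, so the pairs are not independent. The share among pairs of other genes was not computed, so the count of 9 cannot be called high or low.

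Taken against the 3 more abundant alpha subunit genes together, p4hb gave ratios that overlapped. Unlesioned 1 to 4 held 10.9, 9.99, 2.88 and 20.4 p4hb reads per 100 reads of p4ha1a, p4ha1b and p4ha2, and lesioned 1 to 4 held 23.7, 26.1, 13.5 and 42.3. The ratio was higher in the lesioned library at each number. Against p4ha1a alone the groups did not overlap, with a mean log2 ratio of p4ha1a over p4hb of -0.14 ± 0.73 without and -2.21 ± 0.81 with a lesion (SD, n = 4 each). For serpinh1b per 100 reads of 15 fibril-forming collagen genes unlesioned 1 to 4 gave 21.1, 25.8, 33.5 and 16.8, and lesioned 1 to 4 gave 12.3, 8.09, 25.3 and 2.63, lower at each number and overlapping. All other genes of the set together gave 20.4 ± 3.89 and 19.9 ± 3.95 reads per 100 collagen reads (SD, n = 4 each).

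**Figure D4:**
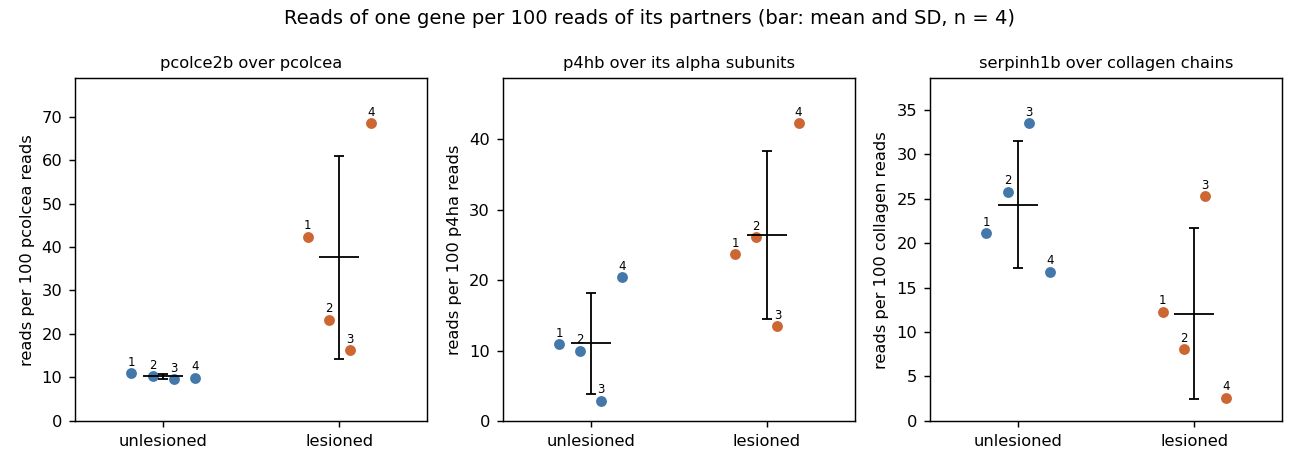
Reads of pcolce2b per 100 reads of pcolcea, of p4hb per 100 reads of p4ha1a, p4ha1b and p4ha2, and of serpinh1b per 100 reads of fibril-forming collagen genes, by library; digits give the library number and bars the mean and SD of 4 libraries. The enhancer ratio lies between 9.67 and 11 without a lesion and between 16.3 and 68.5 with one, while the other ratios overlap between the groups.

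The groups overlapped for the rest of this step. The genes pcolceb and pcolce2a had 7.56 ± 5.72 and 12 ± 7.51 CPM without a lesion, and 3.53 ± 2.41 and 8.82 ± 5.93 CPM with one. The protease gene bmp1a had 14.2 ± 2.13 CPM after the lesion, against the 15.2 CPM without it (-0.09 ± 0.29, adjusted p = 0.955 in edgeR). Its 4 unlesioned libraries ranged from 15 to 15.5 CPM, a coefficient of variation of 1.77% and the smallest of the 35 tested genes.

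Tissue transglutaminase joins glutamine to lysine residues of matrix proteins. The gene tgm2b had 138, 109, 110.4 and 222 CPM in unlesioned 1 to 4 and 298, 315, 134 and 217 CPM in lesioned 1 to 4. The difference lay in libraries 1 and 2, where the log2 fold change was 1.31, and in libraries 3 and 4 it was 0.15. Over all libraries it was 0.74 ± 0.33 (unadjusted p = 0.0489, adjusted p = 0.428 in edgeR), and the groups overlapped. Reads of tgm2a were found only in lesioned 3, at 4.52 CPM.

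Lysyl oxidases start the covalent cross-links of collagen and elastin. Of 8 tested genes 2 had a positive log2 fold change and 6 a negative one, with a median of -0.20, and with library size only the count was 4 and 4 with a median of 0.01. The only positive ones with TMM were loxl2a and loxl1. The gene loxl2a had 18.6, 26.5, 41.8 and 35.1 CPM in unlesioned 1 to 4 and 54.4, 48.2, 35.4 and 33.5 CPM in lesioned 1 to 4. It was higher after the lesion in libraries 1 and 2 (log2 fold change 1.19) and slightly lower in libraries 3 and 4 (-0.10), and over all libraries it was 0.49 ± 0.31 (adjusted p = 0.614 in edgeR). For loxl1 the values were 72.5, 42.4, 80.2 and 31.5 CPM and 76.8, 55.1, 111 and 56.4 CPM, higher in the lesioned library at each number (0.40 ± 0.35, adjusted p = 0.75 in edgeR).

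The founding member loxa (ENSDARG00000003259, chromosome 10 from 7738540 to 7756876, minus strand) separated by library number. It had 149.8, 261, 27.0 and 42.5 CPM in unlesioned 1 to 4 and 191, 199, 60.3 and 15.7 CPM in lesioned 1 to 4. Libraries 1 and 2 of both groups thus ran from 149.8 to 261 CPM and libraries 3 and 4 from 15.7 to 60.3 CPM, and the log2 fold change after the lesion was -0.04 ± 0.83 (adjusted p = 0.995 in edgeR). A gap of this kind between the library numbers, in whichever direction, was found for 4 of the 35 genes, against 9.12% of all genes. The 3 higher in libraries 1 and 2 were loxa, fkbp10b and p4ha3, against 5.56% of all genes, and loxl4 alone was higher in libraries 3 and 4, against 3.56%. The mitochondrial share and the spike-in reads differ between the same libraries. The summed level of 5 epidermal markers was 234, 70.5, 2478 and 4306 CPM in unlesioned 1 to 4. In lesioned 1 to 4 that sum was 1025, 354, 780.2 and 2698 CPM, so lesioned 1 lay above lesioned 3, unlike the gap of loxl4. Markers of other lists that were apart by number as loxa was include kcne4, of the mural list, and cnmd, of the chondrocyte list. The gene kcne4 had 382, 304, 24.6 and 61 CPM in unlesioned 1 to 4 and 157, 173, 55.4 and 6.96 CPM in lesioned 1 to 4. For cnmd the values were 103, 129, 6.69 and 0.329 CPM and 76.6, 52.5, 3.39 and 0.562 CPM. The part of any of these in the gap between library numbers was not tested. The remaining oxidase genes loxl2b, loxl3b, loxl3a, loxl4 and loxl5b had log2 fold changes of -0.24, -0.21, -0.73, -0.68 and -0.20, with SEs of 0.31, 0.31, 1.51, 0.79 and 1.42.

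**Figure D5:**
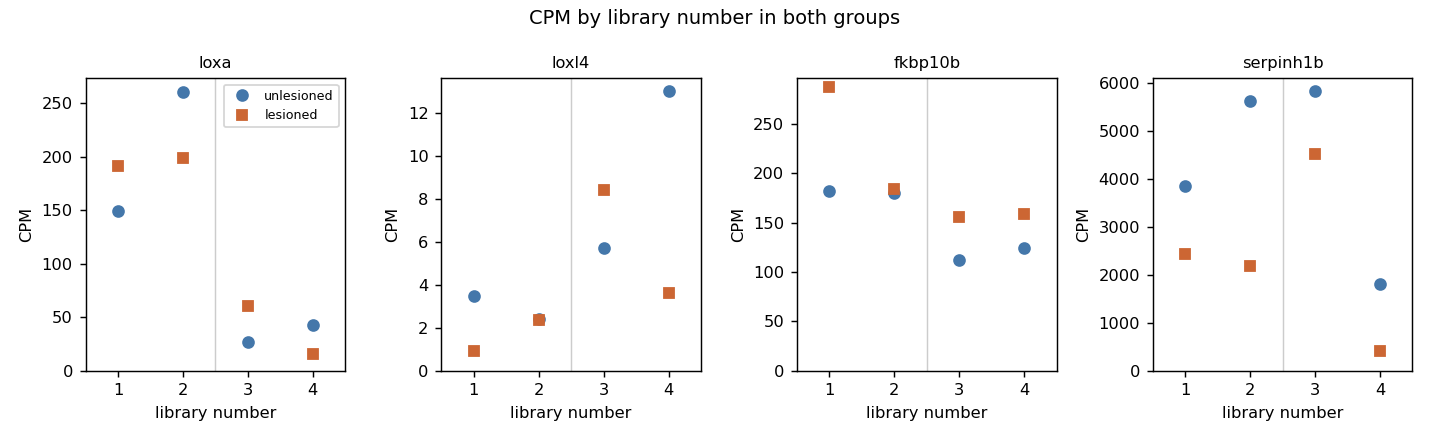
CPM of loxa, loxl4, fkbp10b and serpinh1b by library number; circles are unlesioned and squares lesioned libraries, and the grey line divides libraries 1 and 2 from 3 and 4. For loxa all values left of the line are at least 149.8 CPM and all right of it at most 60.3 CPM, in both groups.

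Summed by step, the 6 genes listed with the prolyl 3-hydroxylase complex took 766 ± 166 CPM without and 1060.4 ± 180.1 CPM with a lesion (SD, n = 4 each). The FKBP genes took 629 ± 183 and 1029.6 ± 255 CPM. Lysyl oxidases took 419 ± 155 and 413 ± 135 CPM, prolyl 4-hydroxylases 276 ± 105 and 267 ± 50 CPM, and lysyl hydroxylases 386 ± 87.8 and 300.3 ± 86.1 CPM. The propeptide step took 627 ± 146 and 440.5 ± 44.9 CPM, and the transglutaminases 145 ± 53.1 and 242 ± 81.1 CPM. These sums are descriptions and have no test. The Hsp47 pair alone took 4405 ± 1898 and 2508 ± 1692 CPM of 7653 ± 2218 and 6261 ± 1838 CPM for the whole set.

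The chains on which these enzymes act, and other genes of collagen synthesis, were read from 2 further lists. Both lists were chosen with earlier results of these data known. Their counts and medians beside those of all genes are therefore descriptions and no test. Genes of collagen glycosylation, endoplasmic reticulum folding and export numbered 30, of which 25 were matched and 24 tested. Of these, 0 passed in edgeR, 8 were higher and 1 lower at an unadjusted p under 0.05, where 6.07% and 5.48% of all genes were, and the median log2 fold change was 0.41, against -0.04 over all genes. In libraries 3 and 4 alone 2 were higher and 0 lower (3.33% and 2.04% of all genes). In libraries 1 and 2 alone it was 10 and 0 (7.79% and 7.11%). The higher count was 5 without unlesioned 1, lesioned 1 or lesioned 3 (6.44%, 4.57% and 5.91% of all genes). It was 9 without unlesioned 3 (7.14% of all genes). The genes of this list with the lowest p encode parts of the COPII coat that carries cargo out of the endoplasmic reticulum. They were sec13 (39.0 ± 10.1 and 102 ± 20.6 CPM, log2 fold change 1.39 ± 0.27, adjusted p = 0.136 in edgeR), sec23a (1.48 ± 0.34, adjusted p = 0.162 in edgeR) and sec31a (1.05 ± 0.27, adjusted p = 0.193 in edgeR). Another listed coat gene, sec24d, had overlapping groups (0.47 ± 0.30, adjusted p = 0.623 in edgeR). The most abundant gene of the list was hspa5, the chaperone BiP, at 3116 ± 2079 and 3481 ± 2035 CPM (0.16 ± 0.50, adjusted p = 0.953 in edgeR). Of 16 fibril-forming collagen genes 15 were matched and 14 tested, and 0 passed in edgeR, 2 were higher and 2 lower at an unadjusted p under 0.05, against the same 6.07% and 5.48%, and the median was 0.21. Here col1a1a was the most abundant (0.28 ± 0.36), and col27a1b (-1.51 ± 0.42, adjusted p = 0.214 in edgeR), col11a1a (0.65 ± 0.22, adjusted p = 0.281 in edgeR) and col11a2 (3.94 ± 1.54, adjusted p = 0.346 in edgeR) had the lowest p. For col11a2 the size of the log2 fold change, though not its sign, depended on single libraries. The gene had 0.137, 0.0524, 6.02 and 0.094 CPM in unlesioned 1 to 4. In lesioned 1 to 4 it had 33.4, 14.7, 48.3 and 0.951 CPM. Its groups overlapped, and its log2 fold change ran from 3.37 to 7.91 with 1 library left out.

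Markers of several cell types were measured beside these genes, because in bulk libraries fewer cells of a type and less RNA per cell cannot be told apart. Mural cells, and perhaps tenocytes, may belong to the sorted cells themselves, which the labels call perivascular and myoseptal. Of 7 mural cell markers, genes of the cells that wrap vessels, 0 passed and 0 were higher, and their summed level was 7326 to 22635 CPM without and 4179.5 to 7477 CPM with a lesion. Their median log2 fold change was -1.19. For tagln, rgs5a and ndufa4l2a every lesioned library lay below every unlesioned one, as for 3.91% of all genes. The most abundant mural marker, acta2, overlapped between the groups (-1.32 ± 0.36, adjusted p = 0.212 in edgeR). For 5 epidermal markers the summed level was 70.5 to 4306 and 354 to 2698 CPM, and for 5 skeletal muscle markers 667 to 1083 and 225 to 1013 CPM. The gene with the highest mean in the muscle list was acta1b, with 673 CPM without and 323 CPM with a lesion, while the other 4 had positive log2 fold changes, and the list's median was 1.07. Chondrocyte markers (7) summed to 4.09 to 158 and 21.4 to 198 CPM, notochord markers (5) to 106 to 286 and 106 to 179 CPM, and tenocyte markers (4) to 269 to 1168 and 191 to 370.5 CPM. The notochord sum was mostly ehd2b, at 145 CPM without and 110.5 CPM with a lesion. The notochord marker cmn had at most 0.576 CPM without a lesion and 54.2, 0.492, 48.1 and 0 CPM in lesioned 1 to 4 (6.49 ± 2.11, adjusted p = 0.262 in edgeR). Of the 5 notochord markers 3 had positive log2 fold changes, with a median of 0.29. The tenocyte sum was mostly tnmd, at 642 CPM without and 187 CPM with a lesion. In the same list scxa (0.81 ± 0.30, adjusted p = 0.317 in edgeR) and xirp2a (1.52 ± 0.48, adjusted p = 0.237 in edgeR) were higher in every lesioned library than in any unlesioned one, as were 5.32% of all genes. The remaining tenocyte marker, mkxa, had a log2 fold change of -0.98 ± 1.41. Sums for macrophages, neutrophils, endothelium, neurons, glia and erythroid cells reached at most 190 CPM in any library. None of the 65 matched markers was at 0 in all 8 libraries, while the endothelial gene cdh5 reached at most 0.246 CPM. The neutrophil gene lyz, below the filter on low counts, was at 0 in every lesioned library. In unlesioned 1 to 4 it had 0, 0.157, 0 and 57.8 CPM, so its signal came from unlesioned 4. A neighbour on the same strand shares 68.7% of its exon bases. The part of these cells in the results was not tested.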

How the data were processed

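The authors deposited 1 table of raw read counts per gene for 8 libraries, made with the SMART-seq2 protocol per the labels. Per the file headers, featureCounts 1.6.3 counted reads on Ensembl 92 exons of GRCz11 without strand, with a minimum mapping quality of 1 and without the options that keep reads on several genes or several places. The submitters' processing notes name GSNAP 2018-07-04, bcl2fastq 2.19.1 and featureCounts 1.6.2. Reads shared by overlapping exons are therefore lost from both genes. Levels of p3h1, serpinh1a, fkbp9 and pcolce2b may thus be understated, also per kilobase of exon. A low CPM of the overlapping neighbour does not show that few reads were lost.

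Counts were scaled with TMM and tested in edgeR 4.0.16 (R 4.3.3), 4 lesioned against 4 unlesioned libraries with no covariate, on 15759 genes that passed filterByExpr, with Benjamini-Hochberg adjustment over all of them and a threshold of 0.05. The SE is the absolute log2 fold change divided by the square root of F. DESeq2 1.42.0 and limma voom 3.58.1 were alternatives, as were other scalings and filters, a replicate block, library pairs 1 and 2 or 3 and 4 alone, and each library left out. CPM per kilobase uses the exon length in the file. The fit was tested on simulated data with 50 genes changed at each fold. It called 0 of 50 at 2-fold, 24 at 4-fold, 42 at 8-fold and 46 at 16-fold, with 2 false calls. Counting error is small beside the spread between libraries, whose common biological coefficient of variation was 74.9%. A count of 3, the floor used for genes at 0, is 0.123 to 0.157 CPM, which covers counting error only.

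Zebrafish symbols were given for 16585 of 31901 IDs. Another 11154 with symbols in capitals were assigned to a paralog by comparing 15 neighbours on each side with the GRCz12tu gene order. On 2853 paralogs with known symbols this was right for 2469, wrong for 28 and unresolved for 356. Of the 37 genes described, 6 had a given symbol and 31 were assigned this way.

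Same-numbered libraries deviated together, with correlations of 0.192, 0.182, 0.232 and 0.154, so by the rule used (each above 0.1) the numbers were taken to pair the libraries. Numbers 1 and 2 were not told apart by this, since unlesioned 2 with lesioned 1 gave 0.199 and unlesioned 1 with lesioned 2 gave 0.182. The labels themselves do not state a pairing. The main fit left it out, and only the replicate block used it. No 2 libraries of a group agreed within sampling noise (chi-square per gene of 51.1 or more). Full values are given for pdgfrb and, per enzyme step, for the gene with the highest level per kilobase, the 2 with the lowest p and any whose groups do not overlap, and for the 3 genes with the lowest p and the most abundant one of each further list. The genes and lists were chosen with earlier results of these data known.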

Additional observations from a re-analysis of the deposited data

Results flagged for a closer look

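In 91 groups of 4 libraries, 8 held 1 library farther from the others than Dixon's critical value of 0.829 allows. Chance alone gives about 5% of such groups if values are normally distributed, which was not checked. In 5 of the 8 that library was unlesioned 3. Among the collagen-modifying genes it was high for loxl5b at 6.88 CPM, where the next value was 1.05, and low for fkbp10a at 8.14 CPM, where the next was 16.7. It was also high for hspa5 at 6199 CPM and for col11a2 at 6.02 CPM, and low for sec13 at 23.8 CPM. Library 3 of the lesioned group was likewise the highest there for hspa5 (6256 CPM) and col11a2 (48.3 CPM) and the lowest for fkbp10a (8.18 CPM), though not flagged. It was not the extreme lesioned library for loxl5b or sec13. Lesioned 1 was high for crtap at 328 CPM, where the next lesioned value was 235. Lesioned 2 held bmp1b at 1.11 CPM and lesioned 3 held tgm2a at 4.52 CPM, while the other lesioned libraries were at or near 0 for these genes.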

How the results depend on the processing

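Of 504 values recomputed for 28 named genes under 18 alternatives, 478 kept direction and side of the threshold, 20 changed sign and 6 passed only in DESeq2. Of 35 members of the set, 24 kept their sign in every alternative. Counts of calls depended on the test. Over all genes, 3 higher and 0 lower in edgeR became 5 and 1 without a filter, 275 and 242 in DESeq2, 7 and 7 with a term for libraries 1 and 2 against 3 and 4, 5 and 1 in libraries 1 and 2 alone, and 0 higher in libraries 3 and 4 alone. They were 3 to 7 and 0 to 1 with 1 library left out, the highest without unlesioned 3. With the replicate block, which takes the library numbers as pairs, 2 genes were called higher and 0 lower, and 0 of the set, so it changed no adjusted call in the set, while unadjusted calls in the set went from 6 higher and 1 lower to 9 and 2. DESeq2 called 2 of the set higher, p4hb and fkbp7. Genes of the set whose groups did not overlap, 2 higher and 0 lower, became 4 higher with DESeq2 size factors in edgeR and in DESeq2 (5.32% of all genes in each), 12 higher and 7 lower in libraries 1 and 2 alone (24.7% and 22.5% of all genes), and 9 and 5 in libraries 3 and 4 alone (20.1% and 17.2%). The ranges were 2 to 6 and 0 to 2 with 1 library left out, where the higher count was 5 without unlesioned 1, 6 without unlesioned 2 or lesioned 3, and 4 without lesioned 4. Over all genes the share higher was then 7.58%, 6.84%, 8.5% and 7.26%, for unlesioned 1, unlesioned 2, lesioned 3 and lesioned 4 left out. Smaller groups overlap less by construction.

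The sign changed for 6 of the 28. For pdgfrb the log2 fold change was 0.01 with library size only, 0.02 in libraries 3 and 4 alone and -0.36 to 0.06 with 1 library left out. For loxa it was 0.08 with library size only, 0.03 with the library term, 0.17 in libraries 3 and 4 alone and -0.43 to 0.67 with 1 left out. It was -0.10 for loxl2a and -0.02 for hspa5 in libraries 3 and 4 alone, and -0.05 for serpinh1a in libraries 1 and 2 alone. With 1 left out, p4ha2 ran from -0.52 to 0.21, serpinh1a from -0.11 to 0.21 and hspa5 from -0.29 to 0.73. The cause was not tested. Scaling by spike-in RNAs, also planned, was not run, because unlesioned 2 held 0 spike-in reads.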
